A study of Danio rerio with 52 samples.

Results

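Mantle cells of the zebrafish lateral line, collected 5 h after the end of a copper treatment, were compared with untreated mantle cells across all genes that could be named. The members are the arrays whose titles give mCherry+ mantle cells at that time (n = 4) or untreated mCherry+ mantle cells (n = 5), which are 9 of the 52 arrays of the series. The study hybridized Affymetrix arrays with RNA of cells sorted by flow cytometry from skins of 4-day-old larvae, before and after copper, to follow putative progenitors of hair cells during regeneration. Treated larvae received 5 µM CuSO4 for 1 h, and untreated larvae received none. About 50 skins went into each sample, and 1 ng of RNA with an integrity score over 8 was amplified before labelling.

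In both groups the sort was for mCherry, expressed from an alpl:mCherry transgene that labels mantle cells. The study used 2 lines that carry this transgene, combined either with pou4f3:GFP, which marks hair cells, or with ET20, which marks mantle cells, and the labels do not say from which of them the mCherry+ mantle cells came. The same sort was also made 1 h, 3 h and 11 h after copper (n = 4 each). Non-fluorescent skin cells of untreated larvae (n = 6) and of larvae 5 h after copper (n = 4) were used to set the mantle response beside that of the surrounding skin. The untreated ones also served the comparison of markers. Together with non-fluorescent arrays 1 h, 3 h and 11 h after copper, all of them entered the shared estimate of spread behind the p-values. Whether the replicates of a group are separate clutches or sorts is not stated in the labels. A p-value therefore reflects only how far these deposited samples differ, and precision is limited by how few arrays there are.

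The lateral line senses water movement through neuromasts, small organs with mechanosensory hair cells at the centre, support cells around them and mantle cells at the rim. Copper sulfate kills hair cells, which fish replace from the remaining cells of the neuromast, and Notch, Fgf and Wnt signalling regulate that replacement. Secreted and membrane proteins of any such cell are folded in the endoplasmic reticulum (ER) by chaperones such as hspa5 and hsp90b1, given N-linked sugars there, and carried to the Golgi in coated vesicles. When unfolded proteins build up in the ER, the unfolded protein response raises the expression of its chaperones and folding enzymes.

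Expression is given as the authors' RMA values on a scale taken as log2, on which a difference of 1 is a 2-fold difference. Genes whose adjusted p in limma was below 0.05 are termed called, from 1 fit of the 46 mCherry+ and non-fluorescent arrays, with Benjamini-Hochberg adjustment over the 19260 genes tested. Array medians over these genes were 4.674 to 4.706 in untreated mantle cells and 4.643 to 4.729 at 5 h. Pairs of 5 h arrays correlated at 0.932 to 0.952 and pairs of untreated arrays at 0.956 to 0.985, so the deposited treated arrays were less alike. These spreads are not directly comparable. Per the labels, a few untreated samples that did not cluster with their group were discarded, and 5 h replicates 1 to 3 carry the adjustment described below. Means over all probe sets were 4.269 to 4.286 in the untreated and 4.338 to 4.366 in the 5 h arrays. The labels describe 2 separately imported analyses that shared the untreated arrays, so that a difference between sets of arrays and the effect of copper cannot be told apart in comparisons with untreated cells. Medians over all probe sets were 3.811 to 3.880 in the 3 h and 5 h arrays, replicates 4 included, against 3.665 to 3.791 in the 1 h and 11 h arrays and 3.699 to 3.748 in the untreated ones.

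A second property of the values bears on every p-value below and on every statement about overlap of single arrays. In each probe set, the mean of replicates 1 to 3 over the 3 h and 5 h mantle groups equalled the mean of the replicates 4 of these times, to within 0.0000667. Replicates 1 to 3 at 3 h and 5 h thus carry an earlier adjustment whose nature is not given in the sources used here. Over both times their mean level is that of the replicates 4. Where all treated arrays lie beyond the untreated ones, or lie close together, they are therefore not 4 independent observations. Calls were therefore repeated with those replicates as a separate block within each population. This adjustment block left the log2 differences unchanged, to within 0.00005, and raised their standard errors by a median of 1.39 times. Replicate 4 alone was also set against the untreated arrays, and a lone array is then assumed to vary like the other groups. Genes called with the same sign in 4 fits are given as the stricter set. These fits were the deposited values, array medians set equal, quantile normalization, and equal medians with the adjustment block. The adjustment block on the deposited values was not among them, and some genes of the set were not called in it.

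The sort was set beside lists of markers. These lists were chosen with earlier results of these data known, so they do not test the sort independently. Of 23 mantle and support cell markers measured, 15 were higher and 2 lower in untreated mantle cells than in untreated non-fluorescent cells, against 20.7% higher and 10.5% lower among all genes with array medians equal. The summed level of the list, as its mean log2 value per array, was 7.322 to 7.893 in untreated mantle cells, 7.271 to 7.823 at 5 h and 5.633 to 6.099 in untreated non-fluorescent cells. The mantle ranges before and after copper overlapped almost wholly. Among the highest of these markers relative to non-fluorescent cells were aplnra (5.47), anos1a (4.89) and fat1b (4.27), while endogenous alpl differed by 0.52 with an adjusted p of 0.144 in limma. Hair cell markers, 30 measured, averaged 4.124 to 4.424 in untreated mantle cells and 4.328 to 4.474 at 5 h, and the hair cell transcription factor pou4f3 was at 3.57 to 4.42 before and 3.78 to 4.76 after copper. Of 51 connective tissue markers 20 were higher and 11 lower in untreated mantle than in untreated non-fluorescent cells. These were 39.2% and 21.6%, against 20.7% and 10.5% of all genes. Of 52 keratinocyte markers 6 were higher and 33 lower, and of 57 leukocyte markers 3 and 22.

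At 5 h, 2388 genes (12.4% of those tested) were called against untreated mantle cells, 1127 higher (5.85%) and 1261 lower (6.55%). The median log2 difference of all genes was 0.00875. In bulk samples of this kind, fewer cells of a type and less RNA per cell cannot be told apart. In replicate 4 alone, which is also 1 of the 4 arrays behind these calls, 345 genes (1.79%) were called. With the adjustment block 137 genes (0.711%) were called, 54 higher and 83 lower, and 2545 genes had an unadjusted p below 0.05. The set called in 4 fits had 135 genes (0.701%), 68 higher (0.353%) and 67 lower (0.348%). Equal medians with the adjustment block alone called the same numbers, so the other fits removed no gene from this set. In 134 of these 135 the 4 treated and 5 untreated arrays did not overlap, which 17.3% of all genes also showed. With replicate 4 alone 90 of the 135 were called. Of the 135, 18 had placeholder symbols and are not named.

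**Figure D1:**
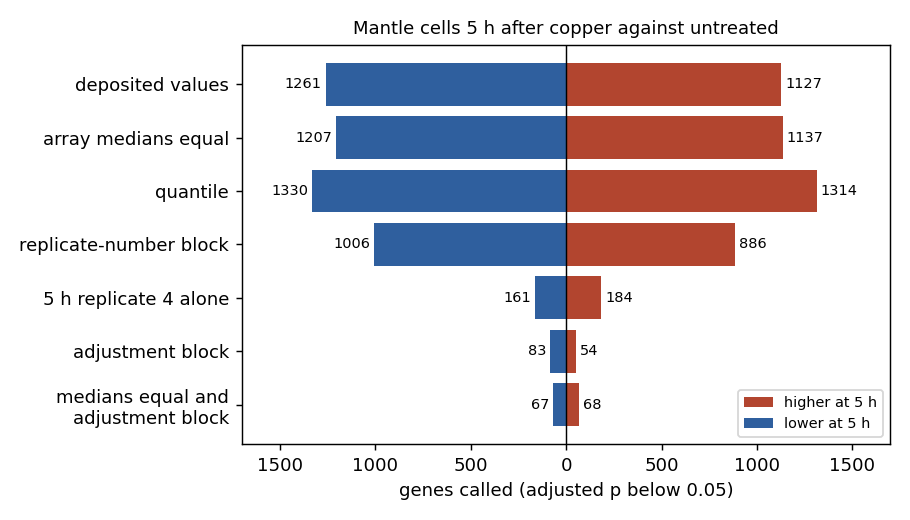
Numbers of genes called higher (red) and lower (blue) in mantle cells 5 h after copper against untreated mantle cells, one pair of bars for each of 7 fits, with the number of genes on a linear axis. The deposited values gave 1127 higher and 1261 lower genes, 5 h replicate 4 alone 184 and 161, and equal medians with the adjustment block 68 and 67.

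The largest increase called in 4 fits was in atg2b, a lipid transfer protein needed for the growth of autophagosomes. It measured 7.300, 7.481, 7.789, 6.849 and 7.561 in untreated replicates 1 to 5, and 10.742, 11.851, 9.425 and 10.304 in 5 h replicates 1 to 4. Every treated array lay above every untreated one, by 3.18 ± 0.56 on average (log2 difference ± SE, adjusted p in limma 0.000211, with the adjustment block 0.0371). The treated arrays themselves were spread over more than 2 log2 units.

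The lysosomal nuclease dnase2 measured 4.68, 4.31, 5.67, 4.1 and 4.1 in untreated cells and 6.91, 7.65, 6.75 and 7.27 at 5 h. Its groups did not overlap, and it rose by 2.57 ± 0.38 (adjusted p in limma 2.4e-05, block 0.0137). For rraga, a Rag GTPase that relays amino acid supply to the TOR kinase at the lysosome, the untreated values were 6.70, 7.04, 6.86, 6.72 and 6.84 and the treated values 8.56, 9.63, 8.53 and 8.42. It rose by 1.95 ± 0.29 (adjusted p in limma 2.4e-05), and replicate 2 was the highest of the treated arrays by a clear gap. The autophagy receptor sqstm1, which is also induced by the Nrf2 pathway, read 7.52 to 7.74 in untreated cells and 8.49 to 9.15 at 5 h, without overlap, a rise of 1.23 ± 0.23 (adjusted p in limma 0.00048). A second probe set of sqstm1 differed by 0.774. The rise of sqstm1 was not called with the adjustment block on the deposited values. A proton pump subunit of the lysosome, atp6v0cb, was at 5.23, 4.95, 5.49, 5.57 and 4.86 before and at 6.51, 6.27, 7.38 and 7.06 after copper, a rise of 1.59 ± 0.25 (adjusted p in limma 5.05e-05).

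The lysosome and autophagy list as a whole did not share this direction. Of its 74 measured members 6 rose and 7 fell, beside 5.85% and 6.55% of all genes, and the median member differed by -0.000438. Besides sqstm1 the members that rose were ppt1 (1.13), tpp1 (0.98), ctsd (0.88), atg5 (0.82) and atg3 (0.75). Those that fell included the cathepsins ctsz (-1.01), ctsh (-0.86) and ctsk (-0.83) and the proton pump subunits atp6v0b (-1.25) and atp6v1c1a (-1.0). Neither atg2b, dnase2, rraga nor atp6v0cb was counted among these members.

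Next in size, ifit12, from a family induced by interferon, measured 4.50, 3.91, 4.14, 3.65 and 3.67 in untreated cells and 6.35, 6.84, 6.62 and 6.62 at 5 h. It rose by 2.63 ± 0.48 (adjusted p in limma 0.000345, block 0.0476), with the treated arrays close together and far above the untreated ones. The immune-type receptor nitr12 rose by 2.15 ± 0.40, from 2.83 to 4.13 in untreated arrays to 4.78 to 6.46 in treated ones. The MHC class I gene mhc1zba read 5.50, 5.14, 5.53, 4.82 and 5.84 before and 7.31, 6.68, 7.21 and 7.53 after copper, a rise of 1.82 ± 0.30 (adjusted p in limma 0.000113). Both groups of mhc1zba values were compact and separate. The adaptor edaradd, which couples the ectodysplasin receptor of skin appendages to NF-kB, was at 3.19 to 3.80 before and at 4.64 to 6.22 after copper and rose by 1.87 ± 0.27.

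The dynein light chain dynlrb1 measured 6.62, 6.58, 6.26, 6.37 and 5.99 in untreated cells and 9.20, 8.12, 8.33 and 8.40 at 5 h. It had the lowest adjusted p of the 12 largest increases (2.15 ± 0.28, adjusted p in limma 4.74e-06, block 0.00625). The kinase snrkb rose by 2.21 ± 0.37, the mitochondrial pseudouridine synthase trub2 by 1.92 ± 0.33, tmem242 by 1.89 ± 0.33, and the secreted glycoprotein fstl1a by 1.80 ± 0.27. Like all the 12 largest increases, these genes were chosen among those without overlap between the groups. With replicate 4 alone dynlrb1, trub2, tmem242 and fstl1a were called, and snrkb was not (2.0, adjusted p in limma 0.0785).

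The decreases called in 4 fits were led by creld2, an ER protein with disulfide isomerase activity that belongs to the unfolded protein response. It measured 6.55, 6.51, 6.55, 6.38 and 7.15 in untreated cells and 4.22, 4.23, 3.71 and 3.90 at 5 h. The groups were more than 2 log2 units apart at their nearest arrays. It fell by 2.62 on the log2 scale (SE 0.27), with an adjusted p in limma of 9.23e-08, of 0.000558 with the adjustment block and of 0.000775 in replicate 4 alone. Next came dpagt1, the enzyme that starts the lipid-linked sugar chain for N-glycosylation, with 6.93, 7.07, 6.55, 6.97 and 7.26 before and 5.19, 5.11, 3.95 and 3.60 after copper. The treated dpagt1 arrays were split into a higher and a lower pair, both below all untreated arrays, and it fell by 2.49 (SE 0.34, adjusted p in limma 8.75e-06).

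The collagen chaperone serpinh1b (Hsp47), which acts in the ER, measured 9.35, 9.38, 9.51, 9.50 and 10.17 in untreated cells and 8.48, 7.21, 7.53 and 7.0 at 5 h, without overlap. It fell by 2.03 (SE 0.32, adjusted p in limma 5.05e-05). The ER paralog of the cytosolic chaperone Hsp90, hsp90b1, was at 8.98, 8.91, 9.14, 9.25 and 9.10 before and at 7.22, 7.57, 7.20 and 6.47 after copper. It fell by 1.96 (SE 0.27, adjusted p in limma 1.14e-05, block 0.0094). The untreated hsp90b1 values were close together, and replicate 4 was the lowest treated array.

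Another of the 12 largest decreases was in the chemokine cxcl18b, which attracts neutrophils in zebrafish, with 6.69, 6.38, 6.52, 7.92 and 6.74 in untreated cells and 5.15, 4.52, 4.65 and 4.74 at 5 h. It fell by 2.08 (SE 0.37, adjusted p in limma 0.000211), although untreated replicate 4 stood well above the other untreated arrays. The interferon regulatory factor irf1b fell by 2.02 (SE 0.36), from 5.92 to 7.13 in untreated arrays to 4.16 to 4.60 in treated ones. An adaptor of TRAF signalling, tank, fell by 2.03 (SE 0.33), and its other probe sets differed by -2.62 and -1.56. The histone chaperone asf1bb was at 6.26, 6.29, 6.39, 6.39 and 6.31 before and at 3.89, 4.62, 5.29 and 3.48 after copper, a decrease of 2.01 ± 0.30 from a very narrow untreated range to a wide treated one.

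Of the last 4 of the 12 largest decreases, unc119b, which carries lipidated proteins, fell by 2.14 (SE 0.27), and the endocytic ATPase ehd4 by 2.09 (SE 0.37). The ubiquitin ligase ubr7 fell by 2.06 (SE 0.34) and the zinc finger gene bnc2 by 2.05 (SE 0.29). The 12 largest decreases were chosen among genes without overlap as well. For ehd4 the call was near the threshold with equal medians and the adjustment block (adjusted p in limma 0.048), and with replicate 4 alone ehd4 was not called (-1.62, adjusted p 0.158).

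**Figure D2:**
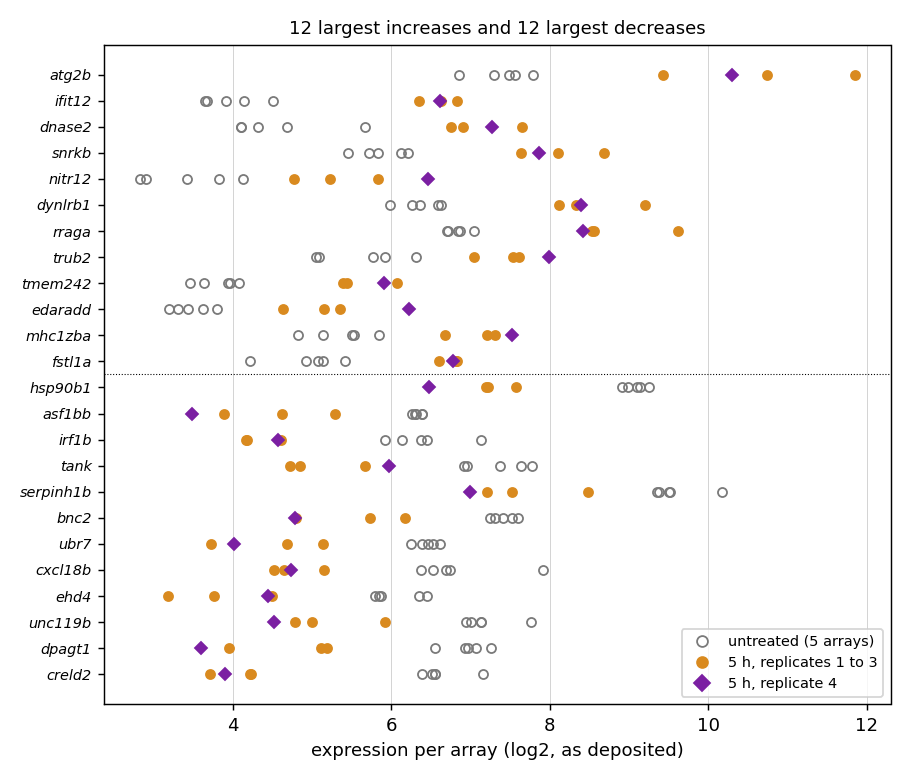
Expression (RMA, log2) of the 12 largest increases and 12 largest decreases among genes called in 4 fits whose treated and untreated arrays do not overlap, with 1 point per array: open circles for the 5 untreated mantle arrays, filled circles for 5 h replicates 1 to 3 and diamonds for 5 h replicate 4. The separation of the groups was fixed by that choice. The values of creld2 go from 6.38 to 7.15 in untreated cells to 3.71 to 4.23 at 5 h.

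More ER chaperone genes fell than rose, in a list chosen with earlier results of these data known. Of 75 measured genes in a list of ER chaperones and the unfolded protein response, 20 fell and 1 rose, against 6.55% and 5.85% of all genes. Below 0 lay 64 of the 75 log2 differences, beside 9464 of the 19260 genes tested, and the median member differed by -0.48. In 4 fits 3 members fell and none rose (0.348% and 0.353% of all genes), which were creld2, hsp90b1 and pdia3. In replicate 4 alone 7 fell, beside 0.836% of all genes, and the median was -0.43. The mean of the list per array was 7.732 to 7.924 in untreated mantle cells and 7.235 to 7.407 at 5 h, so no treated array reached the untreated range.

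The disulfide isomerase pdia3, which folds glycoproteins with calnexin and calreticulin, measured 9.79, 9.77, 9.99, 9.58 and 9.73 before and 8.56, 9.06, 8.68 and 8.60 after copper. It fell by 1.05 (SE 0.17, adjusted p in limma 8.66e-05, block 0.0255). The main Hsp70 of the ER, hspa5 (BiP), was at 10.268, 10.195, 10.386, 10.486 and 10.557 before and at 8.835, 9.525, 8.931 and 8.350 after copper. The hspa5 groups were well apart, and hspa5 fell by 1.47 (SE 0.27, adjusted p in limma 0.00039). With the adjustment block its adjusted p in limma was 0.0513, and it was also not called in 4 fits.

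The DnaJ cochaperones that drive hspa5 fell too, dnajb9a by 1.95, dnajc3b by 1.44, dnajc3a by 1.42 and dnajb9b by 1.34. So did pdia4 (-1.30), the calreticulins calr3b (-1.04) and calr3a (-0.99), calnexin canx (-0.62), the nucleotide exchange factor hyou1 (-0.95), and herpud1 (-1.24), which serves the removal of misfolded proteins. Of the machinery that brings new proteins to the ER, srp68 (-1.31), srprb (-0.90), sec63 (-0.79) and ssr1 (-0.48) fell and srp54 (0.75) rose. These members were called on the deposited values and not in 4 fits. With the adjustment block the number of list members that fell dropped from 20 to 3.

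A second list, of ER to Golgi transport and glycosylation, was written after the values had been seen. Its counts, like those of the first list, only describe the genes it holds. Of its 135 measured members 29 fell and 2 rose (21.5% and 1.48%, against 6.55% and 5.85% of all genes). Below 0 lay 111 differences, beside 9464 of the 19260 genes tested, with a median of -0.33. In 4 fits 7 fell, beside 0.348% of all genes, and in replicate 4 alone the median member differed by -0.43. The list mean per array was 6.598 to 6.738 in untreated cells and 6.177 to 6.333 at 5 h, again without overlap.

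For vesicle fusion at the Golgi, the SNARE stx5a measured 7.43, 7.60, 7.81, 7.80 and 7.97 before and 5.97, 6.14, 6.01 and 6.15 after copper. Its 4 treated arrays were almost equal, far below the untreated ones, and it fell by 1.66 (SE 0.26, adjusted p in limma 4.89e-05, block 0.0195). The vesicle tether uso1 fell by 1.54 (SE 0.27), from 5.05 to 5.82 in untreated arrays to 3.53 to 4.55 in treated ones. The cargo receptor lman1, which carries glycoproteins out of the ER, fell by 1.54 (SE 0.27), with 7.25 to 8.02 in untreated and 6.09 to 6.41 in treated arrays. A subunit of the TRAPP tethering complex, trappc2, fell by 1.91 (SE 0.31). The coat proteins sec24d (-0.97), copb2 (-0.76), sec23a (-0.67) and sec31a (-0.56) and the SNAREs bet1 (-1.55), sec22bb (-1.47), sec22ba (-1.25) and gosr2 (-0.96) fell on the deposited values. The members that rose were trappc6b (1.17) and gmppb (0.76).

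Among the glycosylation enzymes, poglut1, which adds glucose to EGF repeats such as those of Notch receptors, fell by 1.94 (SE 0.32, adjusted p in limma 0.000102). It was at 4.56 to 5.93 in untreated and 2.47 to 3.64 in treated arrays. The O-fucosyltransferases pofut2 (-1.31) and pofut1 (-1.14) fell with it. The N-glycan assembly enzymes alg6 (-1.24), alg14 (-1.23), alg9 (-0.99) and alg1 (-0.79) fell on the deposited values, as dpagt1 did in 4 fits. Of the collagen-modifying enzymes, p3h1 fell by 1.46 (SE 0.23, adjusted p in limma 5.5e-05), from 8.57 to 9.29 in untreated cells to 6.93 to 7.92 at 5 h. The related p4ha2 (-1.08), plod1a (-0.97) and crtap (-0.84) were also called lower.

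**Figure D3:**
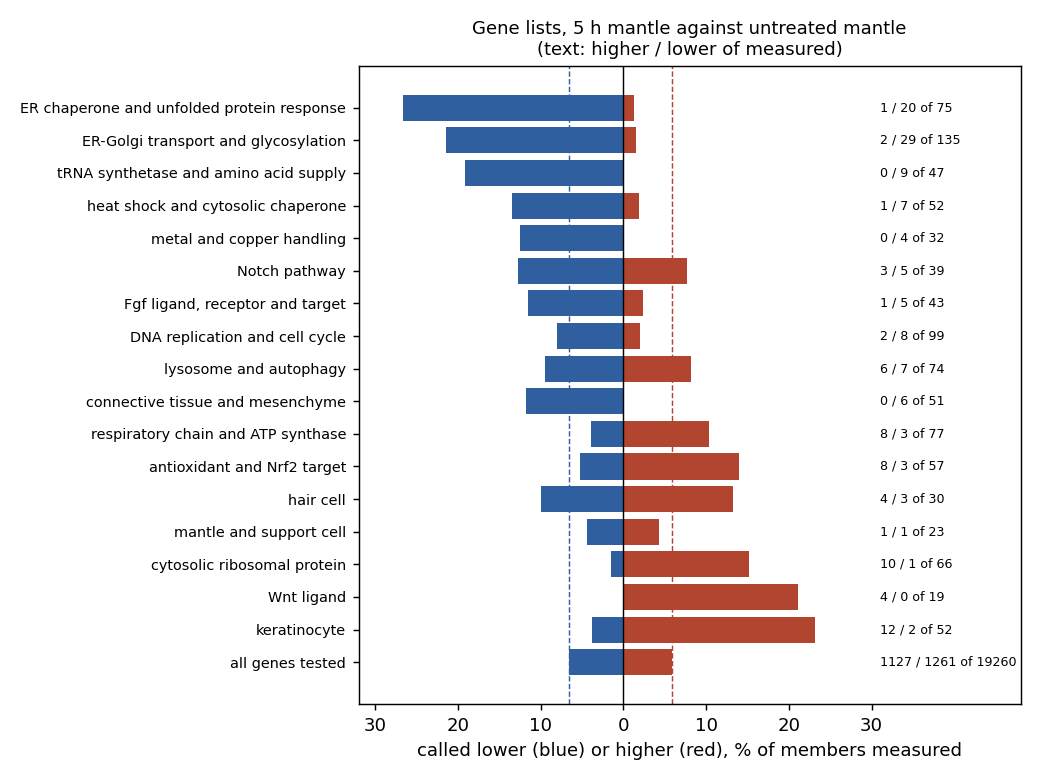
Percent of measured members called lower (blue, to the left) or higher (red, to the right) at 5 h against untreated mantle cells for 17 gene lists and for all genes, with the counts of higher and lower of measured members printed at the side and dashed lines at the percent of all genes (6.55% lower, 5.85% higher). The ER chaperone list, with 20 of 75 lower, lies furthest left.

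In a list of tRNA synthetases, which charge tRNA for translation, and of amino acid supply, 9 of 47 measured members fell (19.1%, against 6.55% of all genes) and none rose. Called in 4 fits were wars1, the synthetase for tryptophan, and eprs1, that for glutamate and proline. For eprs1 the untreated values were 8.56, 8.51, 8.68, 8.52 and 8.70 and the treated values 7.78, 7.68, 7.27 and 7.34, a decrease of 1.08 ± 0.19 between groups that were each tight. For wars1 the decrease was 1.21 ± 0.21, with untreated replicate 5 (6.05) the nearest to the treated arrays (5.24 to 5.78). The other members that fell were aldh18a1 (-1.30), slc1a4 (-1.07), hars (-1.0), farsb (-0.88), kars1 (-0.68), qars1 (-0.65) and vars1 (-0.63). Without 5 h replicate 4, 6 members were called lower.

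In the heat shock and cytosolic chaperone list 7 of 52 measured members fell (13.5%, against 6.55% of all genes) and 1 rose. Besides serpinh1b, an ER protein that this list holds, these were hsp90aa1.2 (-1.92), the small heat shock proteins hspb6 (-1.40) and hspb8 (-1.30), and the cofactors bag3 (-1.26), stip1 (-1.19) and bag2 (-1.13). The steroid receptor cochaperone fkbp5 rose (1.01). Of the 52 members only serpinh1b was called in 4 fits. The list median was -0.21, and it was -0.07 in replicate 4 alone. In contrast, of 66 cytosolic ribosomal protein genes 10 rose, against 5.85% of all genes, and 1 fell, with rpl38 (0.83), rps19 (0.74) and rpl37 (0.73) the largest. None of the 66 was called in 4 fits, and 4 rose with quantile normalization.

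The DNA replication and cell cycle list had 8 members that fell and 2 that rose of 99 measured, near the 6.55% lower and below the 5.85% higher of all genes, and a median of -0.32. In 4 fits rrm1 fell, the large subunit of ribonucleotide reductase, which makes deoxynucleotides. It measured 6.22, 6.09, 6.33, 6.31 and 6.71 before and 4.13, 5.41, 4.65 and 5.06 after copper, a decrease of 1.52 ± 0.27 without overlap. The replication clamp pcna was at 8.2, 8.54, 8.42, 8.62 and 9.21 before and 7.49, 7.74, 7.45 and 7.09 after copper, and fell by 1.15 (SE 0.26, adjusted p in limma 0.00256, block 0.114). Also lower were orc2 (-1.81), dnmt1 (-1.31), e2f3 (-1.17), aurka (-1.02), ccnb1 (-0.92) and dut (-0.80), whereas ccne1 (0.99) and bub3 (1.00) rose. The G1 cyclin ccnd1 differed by 0.22 ± 0.21 and was not called, while its second probe set differed by 0.968, so the probe sets of ccnd1 disagree. In replicate 4 alone none of the 99 was called lower, with a list median of -0.28.

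Genes of the signalling pathways that regulate hair cell replacement moved in both directions. In the Notch list of 39 measured genes 3 rose and 5 fell (7.69% and 12.8%, against 5.85% and 6.55% of all genes), and none was called in 4 fits. The Fringe glycosyltransferase lfng, which tunes the response of Notch receptors to their ligands, read 7.96, 7.28, 7.62, 7.90 and 7.56 before and 6.26, 6.66, 6.43 and 5.29 after copper. It fell by 1.51 (SE 0.28, adjusted p in limma 0.000347), with an adjusted p of 0.0489 with the block and 0.0608 with the block and equal medians. The receptors notch2 (-0.84) and notch1b (-0.62), the nuclear effector rbpja (-1.25) and a second Fringe, rfng (-0.75), also fell.

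The hair cell fate factor atoh1a, which Notch signalling restrains, measured 4.1, 4.63, 4.84, 4.22 and 4.55 in untreated mantle cells and 5.66, 5.11, 5.15 and 5.71 at 5 h. The groups were separate and the difference modest (0.94 ± 0.19, adjusted p in limma 0.000892, with the block 0.0727). The Hairy-related genes her9 (1.15) and hey2 (1.06) rose. The receptor notch3 (0.47), the target her4.1 (-0.23) and the ligand dla (-0.10) were not called.

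In the Fgf list, 5 of 43 measured genes fell and 1 rose (11.6% and 2.33%, against 6.55% and 5.85% of all genes). The ligand fgf3 was called in 4 fits, with 6.26, 6.17, 6.79, 5.74 and 6.68 before and 4.87, 3.85, 4.80 and 4.44 after copper. It fell by 1.84 (SE 0.30, adjusted p in limma 0.000102, block 0.0261), with its highest treated array clearly below its lowest untreated one. The feedback inhibitor spry1, a target of Fgf signalling, fell by 2.2 (SE 0.48), the receptor fgfr4 by 1.1, fgfbp2a by 1.22 and fgfrl1b by 0.96, while fgfbp1a, which releases Fgf from matrix, rose by 2.23 (SE 0.58). The receptor fgfr1a (-0.33) and the ligand fgf10a (-0.40) were not called.

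Wnt genes were called in both directions. Of 19 Wnt ligands 4 rose (21.1%, against 5.85% of all genes) on the deposited values, wnt7ab (1.24), wnt3 (1.23), wnt4b (0.81) and wnt7ba (0.78). The values of wnt3 were 5.69, 5.46, 5.75, 5.23 and 5.13 before and 6.78, 7.39, 6.32 and 6.21 after copper, separate groups with an adjusted p in limma of 0.00584 and of 0.158 with the block. Of 17 Frizzled receptors and co-receptors, the Wnt-binding receptor ryk fell in 4 fits (-1.12 ± 0.18), from 7.77 to 8.25 in untreated arrays to 6.57 to 7.24 at 5 h. Of 32 inhibitors and targets 1 rose and 5 fell (15.6%, against 6.55% of all genes). The scaffold axin1 of the complex that degrades beta-catenin fell in 4 fits (-1.16 ± 0.20), with 7.53 to 8.16 in untreated and 6.43 to 6.92 in treated arrays. The nuclear effector tcf7l2 rose in 4 fits (0.99 ± 0.19), with 6.41 to 6.88 in untreated and 7.23 to 7.81 in treated arrays. With the adjustment block on the deposited values tcf7l2 was not called. The targets lef1 (0.04) and axin2 (-0.36) were not called, and with replicate 4 alone tcf7l2 was not either (0.63, adjusted p 0.317).

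Inflammatory genes were also split. In the chemokine and cytokine list of 38 genes 4 rose and 4 fell (10.5% each, against 5.85% and 6.55% of all genes), with the prostaglandin synthases ptgs2a (2.28) and ptgs2b (1.62) and the chemokine cxcl14 (1.39) among those that rose. Besides cxcl18b, tgfb3 (-1.40), csf1a (-1.37) and tgfb2 (-1.08) fell, and the scavenger receptor ackr3b rose (0.92). Of the pair that guides the lateral line primordium, the receptor cxcr4b (0.20) and the ligand cxcl12a (-0.87) were not called. The cytokine signalling inhibitor socs1a read 4.96, 4.54, 5.06, 5.09 and 5.56 before and 7.19, 6.63, 6.35 and 6.92 after copper, without overlap. It rose by 1.73 (SE 0.32, adjusted p in limma 0.000342) and was called in 4 fits, and its relatives cishb (1.26) and socs1b (1.05) rose on the deposited values. The NF-kB subunits relb (-1.35) and nfkb2 (-1.05) fell, and stat3 (-0.27) was not called. Of 62 immediate early and stress factors 2 rose and 4 fell, among them nr4a1 (-1.66). In the chemokine and cytokine list only cxcl18b was called in 4 fits. The calls of relb, nfkb2 and the immediate early and stress factors did not hold in 4 fits.

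Of 32 measured genes that handle copper and other metals none rose and 4 fell (12.5%, against 6.55% of all genes), and none of the 4 was called in 4 fits. The largest was in steap4, a metalloreductase for iron and copper, with 5.01, 4.56, 4.88, 5.26 and 7.74 before and 0.82, 2.51, 1.78 and 2.41 after copper. Both groups were wide, and it fell by 3.61 (SE 0.86, adjusted p in limma 0.00459, block 0.141). The iron transporter slc11a2 (-1.45), the lysyl oxidase loxl2a (-1.30), a copper enzyme, and the zinc transporter slc39a13 (-0.93) were the other members that fell.

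Antioxidant genes and Nrf2 targets rose in 8 and fell in 3 of 57 measured members (14% and 5.26%, against 5.85% and 6.55% of all genes). In 4 fits sqstm1 and txnipa rose and srxn1 fell. With the adjustment block on the deposited values 1 member rose and 1 fell, beside 0.280% and 0.431% of all genes. The thioredoxin-binding protein txnipa was at 8.02, 7.73, 7.80, 7.44 and 7.83 before and at 8.82, 8.61, 8.60 and 8.84 after copper, a rise of 0.95 ± 0.17. The sulfiredoxin srxn1, which restores oxidized peroxiredoxins, was at 6.65, 6.59, 6.04, 6.77 and 7.36 before and 5.1, 5.06, 4.58 and 5.73 after copper, and fell by 1.56 (SE 0.26, adjusted p in limma 9.14e-05). Neither txnipa nor srxn1 had overlapping groups. On the deposited values the transporter abcc2 (2.89), the Nrf2 gene nfe2l2b (1.76) and gpx4b (0.74) rose, mitochondrial sod2 (-0.91) and the ER peroxiredoxin prdx4 (-0.78) fell, and cytosolic sod1 (0.22) was not called.

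Of 77 respiratory chain and ATP synthase genes 8 rose (10.4%, against 5.85% of all genes) and 3 fell. With the adjustment block on the deposited values 1 rose and 1 fell, beside 0.280% and 0.431% of all genes. Complex I subunits were called both ways in 4 fits. Thus ndufa6 measured 8.00, 8.33, 7.95, 8.22 and 7.49 before and 9.60, 9.68, 9.57 and 8.83 after copper, a rise of 1.42 ± 0.24 that was smallest in replicate 4 (0.83, adjusted p in limma 0.272 with that array alone). In ndufs8a the values went from 7.25 to 7.77 in untreated arrays to 5.86 to 6.57 at 5 h, a decrease of 1.42 ± 0.26. A rise of 0.78 ± 0.14 was measured for ndufa4a, whose product is now assigned to complex IV, with 6.72 to 7.01 in untreated and 7.37 to 7.94 in treated arrays. The complex IV genes cox4i2 (1.49), cox6a1 (1.09) and cox6a2 (1.02) rose on the deposited values.

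For 5 other lists the counts stand beside 5.85% higher and 6.55% lower among all genes. Of 43 apoptosis and p53 genes 4 rose and 2 fell (9.3% and 4.65%), with bcl2a (-1.89), casp8 (-1.08), casp3b (1.15) and mcl1b (1.13) among them. Ribosome biogenesis genes rose in 4 and fell in 5 of 99 (4.04% and 5.05%). Glycolysis and hypoxia genes did so in 4 and 4 of 56 (7.14% each). Sterol and lipid synthesis genes rose in 2 and fell in 2 of 39 (5.13% each). Proteasome and ubiquitin genes rose in 1 and fell in 4 of 50 (2% and 8%). None of the members of these 5 lists was called in 4 fits.

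Keratinocyte markers were higher at 5 h. Of 52 measured, 12 rose (23.1%, against 5.85% of all genes) and 2 fell, and the median was 0.72, beside 0.00875 for all genes. The mean of the list per array was 5.653 to 6.374 in untreated and 6.064 to 7.170 in 5 h mantle cells, so the groups overlapped, and both lay below the 7.262 to 8.008 of untreated non-fluorescent cells. In replicate 4 the median of the list was 1.30, and without 5 h replicate 4 only 4 members were called higher. Relative to untreated cells the list median was 0.49 at 1 h, 1.06 at 3 h and 0.63 at 11 h. At these times 2, 23 and 9 members were higher, against 1.15%, 7.99% and 3.13% of all genes. Whether keratinocyte RNA in the sorted samples had a part in these and the following values was not tested.

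In 4 fits the epidermal transcription factor klf3 and the junction protein jupa (plakoglobin) rose. With the adjustment block on the deposited values only 1 keratinocyte marker rose, beside 0.280% of all genes. For klf3 the values were 7.38, 7.45, 7.62, 6.60 and 7.23 before and 9.57, 9.05, 8.63 and 8.87 after copper (1.77 ± 0.28). For jupa they were 8.86, 8.92, 9.36, 8.22 and 9.08 before and 9.99, 10.58, 10.04 and 11.00 after copper (1.52 ± 0.28), and its second probe set differed by 1.32. Both were without overlap. The epithelial cadherin cdh1 rose by 1.91 (SE 0.46, adjusted p in limma 0.00517, block 0.15), from 7.75 to 8.49 in untreated to 9.65 to 10.41 in treated arrays. Desmosome genes rose as well, namely pkp3a (1.49), dspa (1.23) and pkp1a (1.13), with the hemidesmosome integrin itgb4 (1.25), while pkp3b (-1.40) fell.

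In the list of integrins, laminins and cell migration, 9 of 106 rose and 11 fell (8.49% and 10.4%, against 5.85% and 6.55% of all genes), and none was called with the adjustment block. Beside cdh1, the collagen-binding itga2.2 (1.73), itga3b (1.1) and vim (0.85) rose. The mesenchymal transcription factors zeb1b (-1.37), twist2 (-1.35), zeb2a (-0.97) and zeb1a (-0.83) fell, as did itga4 (-1.20). Of 55 matrix proteases and inhibitors 5 rose and 7 fell. The cystatin cst14a.2, a cysteine protease inhibitor, was called in 4 fits, at 4.38 to 4.70 before and 5.95 to 6.58 after copper (1.59 ± 0.26). The membrane protease st14a (1.97), its inhibitor spint1a (1.32) and timp4.3 (1.69) rose and mmp14a (-1.03) fell, whereas mmp9 (-0.25) was not called. Collagen genes and matrix proteins fell in 4 and rose in 1 of 95, with col6a2 at -1.30 and fn1b at 1.54.

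Markers of other cells were counted in the same way, against 5.85% higher and 6.55% lower among all genes. Of 57 leukocyte genes 2 rose and 1 fell, and their mean per array was 3.929 to 4.525 before and 4.219 to 4.406 after copper. Erythrocyte and endothelial (1 of 41), muscle (4 of 70), Schwann cell and glia (3 of 31), pigment cell (1 of 25) and ionocyte genes (2 of 23) were called in either direction in these numbers. Of 51 connective tissue genes 6 fell (11.8%) and none rose, among them pdgfrb (-0.86) and scxa (-1.16), and their mean per array was 6.984 to 7.200 before and 6.843 to 7.119 after copper. In the mantle and support list TSPAN1 fell by 2.07 (SE 0.42, adjusted p in limma 0.000972) and eya1 rose by 0.77 (SE 0.24, adjusted p 0.0266). The progenitor factor sox2 (-0.21) and alpl (-0.63 ± 0.30) were not called. Of 30 hair cell genes 4 rose (13.3%) and 3 fell (10%), with cabp2b at 1.15 and myo6b at -0.83. None of the members of the mantle and support, connective tissue and hair cell lists was called with the adjustment block.

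**Figure D4:**
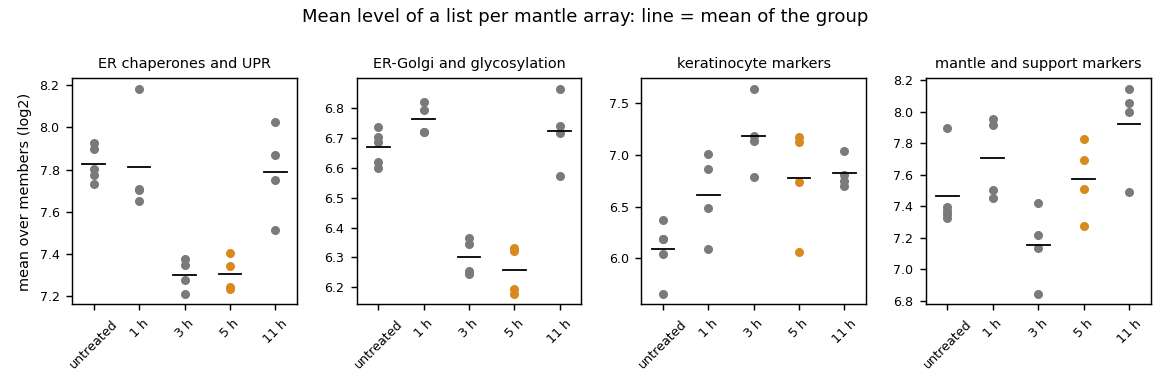
Mean log2 value of a gene list in each mantle array (points) and its group mean (line) for untreated cells and 1, 3, 5 and 11 h after copper. The ER chaperone list lies at 7.211 to 7.407 in all 3 h and 5 h arrays and at 7.732 to 7.924 in untreated ones, while the keratinocyte and the mantle and support lists overlap between untreated and 5 h arrays.

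The 5 h arrays were then set against the other times. Only 3 h and 5 h carry the earlier adjustment, and the arrays of these times stand apart in their medians over all probe sets, so in comparisons with 1 h and 11 h a difference between these sets of arrays and an effect of time cannot be told apart. Against 1 h, 2596 genes were called (13.5%), 861 higher (4.47%) and 1735 lower (9.01%), and with the adjustment block 357 (1.85%), 285 of them lower (1.48%). The split depended on scaling, since 33.2% of the called genes were higher on the deposited values, 39.8% with equal medians and 50% with quantile normalization. Against 11 h, 2446 were called (12.7%), 822 higher (4.27%) and 1624 lower (8.43%), and with the block 328 (1.70%), 248 of them lower (1.29%). Here 33.6%, 45.7% and 51.8% were higher under the same scalings. These comparisons share the 5 h arrays with each other and with the comparison against untreated cells, so the calls are not independent. Against untreated cells, 289 genes (1.50%) were called at 1 h, 2878 (14.9%, with 7.99% higher and 6.95% lower) at 3 h and 770 (4.00%) at 11 h, with the untreated arrays shared throughout.

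Between 5 h and 3 h, limma called 3 genes on the deposited values (0.0156%), where 1542 had an unadjusted p below 0.05, 2 higher (0.0104%) and 1 lower (0.00519%), and quantile normalization gave 17 (0.0883%), 10 higher (0.0519%) and 7 lower (0.0363%). Both times carry the earlier adjustment. Of the 135 genes called in 4 fits at 5 h, 126 were called in the same direction at 3 h, 11 at 1 h and 21 at 11 h. Among all genes 14.9%, 1.50% and 4.00% were called at these times, and the untreated arrays are shared. Since the adjustment also ties the 3 h and 5 h arrays together, the calls at 3 h and 5 h are not independent. The kinase stk32c measured 4.52, 4.27, 4.21, 4.58 and 4.99 in untreated cells and 6.15, 6.13, 5.89 and 6.57 at 5 h, and it rose by 1.67 (SE 0.23, adjusted p in limma 8.75e-06). It differed from untreated cells by 0.59 at 1 h, 0.19 at 3 h and -0.23 at 11 h, and its 5 h arrays stood above all untreated, 3 h and 11 h arrays, while 1 array at 1 h (6.08) reached the 5 h range. The channel-like gene tmc5 was higher at 5 h than at 3 h and tinagl1, a matrix glycoprotein, lower. Against untreated cells their differences of 0.58 and 0.43 at 5 h were not called.

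ER chaperones at 5 h were lower than at both outer times. Of the 75 members, 19 were lower than at 1 h and 21 lower than at 11 h, against 9.01% and 8.43% of all genes, and with the adjustment block the counts were 5 and 4, against 1.48% and 1.29%. The list mean per array was 7.653 to 8.183 at 1 h, 7.211 to 7.376 at 3 h and 7.514 to 8.026 at 11 h, beside 7.235 to 7.407 at 5 h. The 5 h range thus lay below those of 1 h and 11 h and overlapped that of 3 h. Relative to untreated cells the median member differed by 0.02 at 1 h, -0.48 at 3 h, -0.48 at 5 h and -0.02 at 11 h, and 1, 23, 20 and 2 members were lower. For creld2 the differences from untreated cells were -0.61, -2.32, -2.62 and -0.63 at these times, for hsp90b1 -0.20, -1.92, -1.96 and -0.33, and for pdia3 0.35, -1.03, -1.05 and 0.21. In the list of ER to Golgi transport and glycosylation 39 of 135 members were lower than at 1 h and 37 lower than at 11 h, with 11 in each case with the block.

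**Figure D5:**
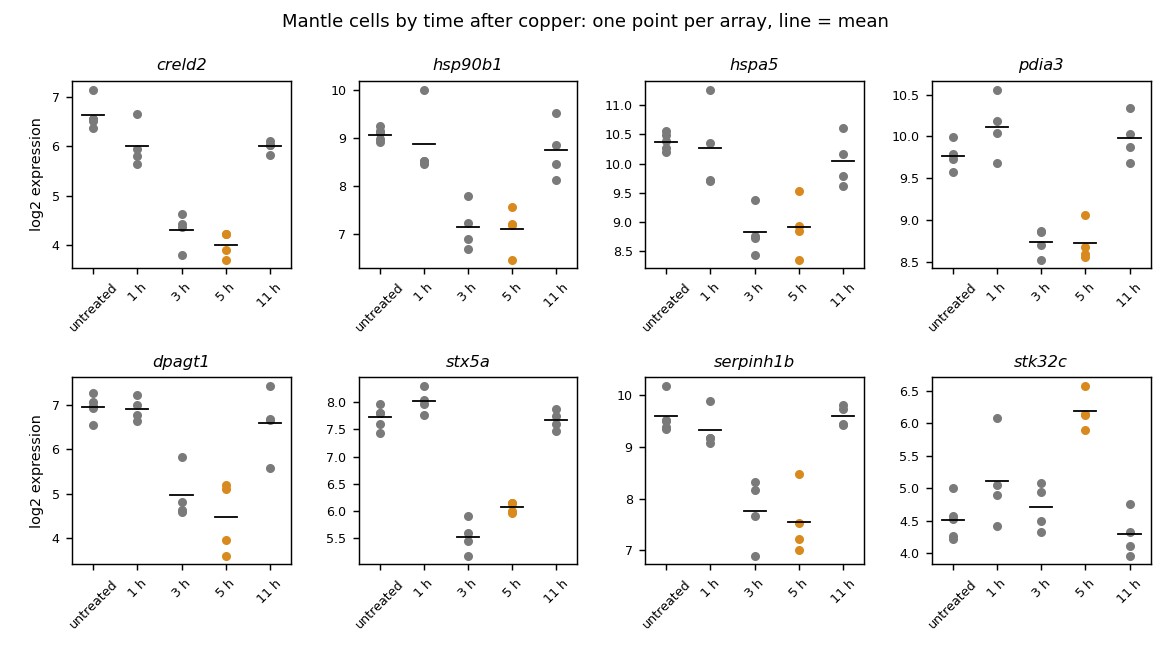
Expression (RMA, log2) of creld2, hsp90b1, hspa5, pdia3, dpagt1, stx5a, serpinh1b and stk32c in each mantle array (points) with the group mean (line), for untreated cells and 1, 3, 5 and 11 h after copper. In the first 7 genes the 3 h and 5 h means lie below those of untreated cells, 1 h and 11 h, and in stk32c the 5 h arrays stand at 5.89 to 6.57.

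Named by size among genes that the adjustment block also called, atp6v0cb was higher at 5 h than at 1 h by 2.2 and than at 11 h by 2.24. Against 1 h, dnase2 was higher by 2.99 and mhc1zba by 2.34. The hormone gene lepb (-3.04), the signalling regulator rgs17 (-2.71), cxcl18b (-2.58) and the actin-severing cfl2 (-2.68) were lower at 5 h than at 1 h. Against 11 h, atg2b was higher by 4.06 and trub2 by 2.58, and ubr7 (-2.81), cfl2 (-2.74), bnc2 (-2.44) and sostdc1b (-3.03), a secreted antagonist of BMP and Wnt signalling, were lower. Of the 47 tRNA synthetase and amino acid supply genes 15 were lower than at 1 h and 13 lower than at 11 h. Cell cycle genes were lower than at 11 h in 15 of 99, beside 9.01% of all genes lower than at 1 h and 8.43% lower than at 11 h. With the adjustment block these counts were 3, 3 and 2.

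The non-fluorescent skin cells of the same larval stage served as the other population, with array medians set equal since their deposited medians were 4.753 to 4.924 before and 4.930 to 4.968 after copper. In them 2248 genes were called at 5 h (11.7%), 1337 higher (6.94%) and 911 lower (4.73%). The calls in non-fluorescent cells given here were made without the adjustment block. Of the 135 genes called in 4 fits in mantle cells, 32 were among those 2248 in the same direction and 2 in the opposite one. Called lower in both populations were, among others, wars1 (-1.59 in non-fluorescent cells), cxcl18b (-1.39), irf1b (-1.35), rrm1 (-1.18), ubr7 (-1.16), serpinh1b (-1.03) and ryk (-0.69). Also hspa5 fell there, by 1.22 (SE 0.26, adjusted p in limma 0.00152), and klf3 rose by 1.11. In the ER chaperone list 12 members fell and 5 rose in non-fluorescent cells, with a median of -0.28, and the list mean per array was 7.243 to 7.401 before and 6.975 to 7.258 after copper. In the cell cycle list 21 of 99 fell, with a median of -0.40. In the tRNA synthetase and amino acid supply list 7 of 47 fell and 3 rose, with a median of -0.22, beside -0.20 in mantle cells.

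The difference of the responses, mantle minus non-fluorescent, was called for 906 genes with equal medians (4.70%), 365 higher (1.90%) and 541 lower (2.81%). On the deposited values 1319 were called (6.85%) and the median of all genes was shifted to -0.137, so the equal medians are used here. With the adjustment block 4 were called (0.0208%), each lower, of which atmin, katna1 and pphln1 are named genes and the last has a placeholder symbol, and with the block and equal medians 0, where 1528 genes had an unadjusted p below 0.05 in limma. For creld2 the response in non-fluorescent cells was -0.45 ± 0.25 and the difference -2.15, for dpagt1 -0.85 ± 0.33 and -1.63, and for hsp90b1 -0.66 ± 0.26 and -1.28. For dnase2 the response there was 0.05 ± 0.35 and the difference 2.54, and for rraga -0.44 ± 0.28 and 2.41. Each of these differences was called with equal medians and not with equal medians and the adjustment block.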

How the data were processed

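Each array held 75212 probe sets. The deposited log2 values are RMA output of the authors, per the submitters' processing notes, beside Partek 6.6. Base 2 was assumed from RMA and from the values, which run from -1.29 to 15.05 with 0 missing. Per the labels, the authors discarded a few untreated samples that did not cluster with their group, which can make the spread smaller. The values were used as they stand.

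Probe sets were named through the platform annotation, 20806 with 1 symbol, 855 with several and 53551 unnamed, and 1 symbol was updated through RefSeq. For the 1365 of 19260 genes with more than 1 probe set, that with the highest mean over all arrays was used. Placeholder symbols (2319) were tested but not named. One linear model with 10 groups was fitted to 46 arrays with limma 3.58.1 (lmFit, eBayes) in R 4.3.3, and the package data.table (1.17.8), after tests on simulated data. Figures were drawn with matplotlib.

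The members and gene lists were chosen with earlier results of these data known. Genes were named by size, the 12 largest increases and 12 largest decreases called in 4 fits without overlap, up to 3 such members of each list, up to 6 genes in each direction of the other comparisons, and a fixed set. The further list members named were chosen after their values were seen. Alternatives were other scalings, the adjustment block, replicate 4 alone, a block for replicate numbers, other sets of arrays, variance settings, probe set rules, a filter on dim genes, a stricter threshold and leaving out each array. No sequences were used here.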

Additional observations from a re-analysis of the deposited data

Results flagged for a closer look

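In 9 of the 128 groups of values examined, 1 array stood apart from the others by Dixon's criterion, where chance gives about 1 in 20. Among untreated mantle arrays, replicate 5 was high in creld2 (7.15, the others 6.38 to 6.55), unc119b (7.76, the others 6.94 to 7.14) and serpinh1b (10.17, the others 9.35 to 9.51). Untreated replicate 4 was high in cxcl18b (7.92, the others 6.38 to 6.74) and untreated replicate 3 in sox2 (7.98, the others 7.67 to 7.76). Among the 5 h arrays, replicate 2 was high in rraga (9.63, the others 8.42 to 8.56) and low in wars1 (5.24, the others 5.74 to 5.78). Replicate 4 was low in ndufa6 (8.83, the others 9.57 to 9.68), and replicate 1 high in her4.1 (3.88, the others 3.62 to 3.65).

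The response at 5 h differed between mantle and non-fluorescent cells, in limma with array medians equal, for 34 of the named genes. Among all genes tested this difference was called for 4.70%. Some of the 34 genes were named for the size of this difference, so their number is partly fixed by that choice. Higher in the mantle response were agfg1a (2.89), enoph1 (2.82), ddrgk1 (2.74), ccdc50a (2.68), mppe1 (2.63), mhc1zba (2.57), dnase2 (2.54), rraga (2.41), dynlrb1 (2.16), ndufa6 (1.81), tmem242 (1.76), snrkb (1.75), edaradd (1.63), jupa (1.61), wnt3 (1.54), socs1a (1.49), atoh1a (1.13), ccnd1 (1.02) and txnipa (0.882). Lower were atmin (-3.61), katna1 (-2.26), creld2 (-2.15), poglut1 (-1.91), pphln1 (-1.79), tank (-1.76), cxcl12a (-1.75), ehd4 (-1.73), dpagt1 (-1.63), unc119b (-1.55), bnc2 (-1.40), hsp90b1 (-1.28), ndufs8a (-1.17), axin1 (-1.10) and pdia3 (-0.839). None of these 34 differences was called with equal medians and the adjustment block, which called 0 genes. Of these genes agfg1a, ddrgk1, ccdc50a, ccnd1 and cxcl12a were not called in mantle cells alone. Other probe sets of ddrgk1, agfg1a and ccnd1 gave 5 h differences from untreated mantle cells of -0.592, 0.214 and 0.968.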

How the results depend on the processing

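The counts turned on how the adjusted replicates were handled. With the adjustment block, with the block and equal medians, and with 5 h replicate 4 alone, 137, 135 and 345 genes were called against untreated cells, 357, 283 and 534 against 1 h, 328, 282 and 529 against 11 h, and 4, 0 and 216 for the difference of responses. Against 3 h, replicate 4 alone gave 8 genes and quantile normalization 17. A fit of only the arrays compared gave 1528 against 1 h, 0 against 3 h, 1079 against 11 h and 2382 for the difference of responses. Against untreated cells the fit of all probe sets, which counts probe sets and not genes, called 10687, with 6986 higher and 3701 lower. Array weights gave 3872 genes and an adjusted p below 0.01 gave 972. The other planned settings, beside leaving out an array, kept the number of genes called against untreated cells between 1892 and 3222. The block for replicate numbers gave 1892, 2451, 3, 2311 and 1143 in the 5 comparisons and took the keratinocyte count from 12 to 7. Same-numbered deviations of untreated and 5 h mantle arrays correlated at -0.0903 to 0.0553. Since 5 h replicates 1 to 3 carry the earlier adjustment, this cannot settle whether the numbers pair the samples. Other groups were not examined for such pairing.

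Leaving out 1 array gave 1541 to 2117 genes against untreated cells, the fewest without 5 h replicate 4 (1541) and untreated replicate 5 (1585), 1980 to 2278 against 1 h, 2 to 11 against 3 h, 1734 to 2211 against 11 h and 869 to 1243 for the difference of responses, the fewest without untreated mantle replicate 5. ER chaperones lower numbered 15 to 19, ER to Golgi genes 23 to 29, tRNA synthetase and amino acid supply genes 6 to 11 and cell cycle genes 6 to 8. Keratinocyte genes higher numbered 4 to 17 and ribosomal proteins higher 7 to 10. For the 91 genes named by the rule, scalings, blocks, replicate 4 alone, only the arrays compared and leaving out an array were run. In none of these did a called gene reverse its direction. The adjustment block leaves the log2 differences unchanged and the other fits reuse the same arrays, so reversals were unlikely in advance. Of the 91 genes, 24 lost their call with the adjustment block and 21 with equal medians and the block. With replicate 4 alone more of them lost it than with either block. The causes were not tested. How far probes stood above background was not examined here, and the few arrays limit all values.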
